A study of Mus musculus with 4 samples.

Results

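Of 30406 genes listed in all 4 libraries, the 10 described here encode transforming growth factor beta (TGF-beta) ligands (*Tgfb1*, *Tgfb2*, *Tgfb3*), their receptors (*Tgfbr1*, *Tgfbr2*, *Tgfbr3*), the latent TGF-beta binding proteins (*Ltbp1*, *Ltbp2*, *Ltbp3*) and a matrix protein named for its induction by the pathway (*Tgfbi*). They were taken by gene symbol as members of the pathway, with earlier results of these data known. The cells came from popliteal lymphatic vessels and the superficial saphenous vein of C57BL/6J mice, 3 mice pooled per library, and were profiled by droplet single-cell RNA sequencing, in which unique molecular identifiers (UMIs) count transcripts. tdTomato1 and tdTomato2 held sorted red cells of *Cspg4*-Cre;Ai9-tdTomato mice more than 8 months old, in which the *Cspg4* promoter drives Cre and so marks every cell that ever used it, not muscle alone. The WT and TNF-Tg libraries held live cells of high scatter from male mice labelled as 9 months old, the second from a line carrying a TNF transgene that develops inflammatory-erosive arthritis. WT and TNF-Tg were 1 library each, so that genotype and library preparation cannot be told apart.

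TGF-beta ligands are secreted in a latent complex, in which the cleaved propeptide wraps the growth factor and is bound by a latent TGF-beta binding protein that anchors it to fibrillin and fibronectin, or, on leukocytes, by the membrane protein encoded by *Nrros*. Integrins and matrix-bound factors free the ligand, which binds the type II receptor (*Tgfbr2*), and this kinase activates the type I receptor (*Tgfbr1*) and through it the SMAD transcription factors. Betaglycan (*Tgfbr3*) is a co-receptor that presents ligand, TGF-beta 2 above all, and in vessel walls the pathway is known for matrix production and for the contractile programme of mural cells.

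The libraries held 1504, 454, 5488 and 3391 cells in the order tdTomato1, tdTomato2, WT and TNF-Tg, with 2357031 to 68773605 UMIs each, and no pair shared more than 5 cell barcodes. Cells were gated by marker genes into stroma (240 to 2178 cells per library) and leukocytes (155 to 2800), and stroma was divided with 8 markers each of the clusters named lymphatic muscle cells (LMC) and vascular smooth muscle cells (VSMC) by the study. The 6 genes of the contractile list (*Myh11*, *Cnn1*, *Actg2*, *Lmod1*, *Synpo2* and *Des*) summed to 12.9 to 42.1 CPM (a gene's UMIs divided by all UMIs of the summed cells, scaled to the same total everywhere) in the LMC division and 4.29 to 24.5 CPM in the VSMC division. Most of the former was *Des*, at 9.22 to 39.0 CPM against at most 0.671 CPM in leukocytes, and *Synpo2* reached 11.5 CPM in the VSMC division. The other 4 lay at 0 to 2.51 CPM, and *Acta2* and *Tagln*, contractile genes outside the list, reached 5.01 and 1.67 CPM. Because the gate used the study's cluster markers and not contractile genes, the classes are called LMC-marker and VSMC-marker stroma, and whether they are muscle was not tested. From 45 to 207 stromal cells per library lay within 1 marker of that division. The *Tdtomato* transcript was read in 86 cells of tdTomato2, was at 0 in WT and TNF-Tg, and was not analysed in tdTomato1. Leukocyte classes carry the names of their marker lists, with "-like" added.

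The first comparison asked in which compartment each gene was transcribed, with the stroma and the leukocytes of each library as a pair. *Tgfb1*, the ligand best known from immune cells, stood at 205, 244, 174 and 208 CPM in the leukocytes of tdTomato1, tdTomato2, WT and TNF-Tg. In the stroma of the same libraries it stood at 12.3, 12.7, 18.2 and 12.2 CPM. The ranges did not overlap, and leukocytes were 9.53-fold (WT) to 19.2-fold (tdTomato2) above stroma. In edgeR's quasi-likelihood test with the library as a block, stroma minus leukocytes was −3.78 on the log2 scale (standard error (SE) 0.20, 13.8-fold, adjusted p = 2.28e-06), higher in leukocytes in 4 of 4 libraries. After each cell was thinned to 3000 UMIs, 38.2% of 2545 WT leukocytes (Clopper-Pearson 95% interval 36.3% to 40.2%) and 42.6% of 1907 TNF-Tg leukocytes (40.3% to 44.8%) held a *Tgfb1* UMI. In stroma 4.15% (3.33% to 5.11%) and 2.83% (1.91% to 4.05%) of cells did. Without thinning the shares were 73.1% and 74.3% against 19.6% and 12.9%, and thinning left out 255 and 171 leukocytes and 130 and 86 stromal cells that were too shallow.

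Beside the stromal *Tgfb1* signal, *Nrros*, a leukocyte gene, stood at 0 to 1.76 CPM in stroma and 203 to 235 CPM in leukocytes. Its leukocyte to stroma ratio was 134 in WT and 251 in TNF-Tg, where that of *Tgfb1* was 9.53 and 17.1. The 8 leukocyte gating markers summed to 20.6 to 105 CPM in stroma and 4606 to 6869 CPM in leukocytes, and *Ptprc* to at most 2.51 CPM in LMC-marker stroma. These 8 markers, *Ptprc* among them, set the gate, so their low level in stroma follows in part from the gate itself. Against its leukocyte level, the stromal *Tgfb1* reading, 18.2 CPM in WT, was larger than that of *Nrros*, which was not a gating marker. What part of it came from leukocyte transcripts was not tested.

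*Tgfb2* had the opposite distribution, at 213, 118, 122 and 79.1 CPM in stroma against 2.01, 0, 0.271 and 0.229 CPM in leukocytes, with no overlap. The fitted difference was 8.44 on the log2 scale (SE 0.32, adjusted p = 8.30e-07), a value that rests on 0 to 9 leukocyte UMIs per library. At 3000 UMIs a cell, 31.2% of WT (28.8% to 33.7%) and 25.5% of TNF-Tg LMC-marker cells (21.8% to 29.5%) held a *Tgfb2* UMI, against 0.0786% (0.00952% to 0.284%) and 0.105% (0.0127% to 0.378%) of leukocytes. Unthinned, these shares were 67.7% and 58.2% against 0.321% and 0.241%, at median depths in WT of 16010 UMIs (LMC-marker) and 11825.5 UMIs (leukocytes). *Tgfb3* was likewise read in stroma, at 39.2, 18.7, 29.2 and 16.4 CPM, and reached at most 0.572 CPM in leukocytes (log2 difference 6.23, SE 0.38, adjusted p = 4.56e-06). The ligands were therefore divided by compartment, *Tgfb1* in leukocytes and *Tgfb2* and *Tgfb3* in stroma.

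The promoters of the ligands with opposite distributions and of *Ltbp1*, the latency gene with the largest stromal excess, are printed here because they show how differently these genes begin. RefSeq entries (GRCm38.p6) were found for 8 of the 10 genes, and the 250 bases before the start are given 5′ to 3′ on the gene's strand, with matches to any of the searched motifs in capitals. The motifs were the TATA box TATAAA, the GC box GGGCGG, the cyclic AMP response element TGACGTCA and the AP-1 site TGANTCA, searched on both strands and found in 12.4%, 32.7%, 1.55% and 6.75% of 32851 promoters of this length. On GRCm38 (GENCODE annotation) *Tgfb1* spans chr7:25687002-25705077, *Tgfb2* chr1:186622792-186705989 and *Ltbp1* chr17:75005568-75392512, and the windows lie at their RefSeq starts. The first is the *Tgfb1* window at chr7:25686752-25687001 (+ strand), the second *Tgfb2* at chr1:186705990-186706239 (− strand, overlapping an exon of *Gm29491*), the third *Ltbp1* at chr17:75005279-75005528 (+ strand).
Tgfb1: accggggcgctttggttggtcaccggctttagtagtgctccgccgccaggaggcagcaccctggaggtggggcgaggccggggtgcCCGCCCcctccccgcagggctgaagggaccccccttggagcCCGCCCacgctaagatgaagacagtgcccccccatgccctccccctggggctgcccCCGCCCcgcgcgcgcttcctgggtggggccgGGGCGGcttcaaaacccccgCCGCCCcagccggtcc
Tgfb2: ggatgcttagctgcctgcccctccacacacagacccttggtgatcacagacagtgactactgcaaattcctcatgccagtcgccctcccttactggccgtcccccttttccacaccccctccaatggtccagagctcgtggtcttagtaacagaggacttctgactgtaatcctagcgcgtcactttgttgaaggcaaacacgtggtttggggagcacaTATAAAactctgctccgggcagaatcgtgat
Ltbp1: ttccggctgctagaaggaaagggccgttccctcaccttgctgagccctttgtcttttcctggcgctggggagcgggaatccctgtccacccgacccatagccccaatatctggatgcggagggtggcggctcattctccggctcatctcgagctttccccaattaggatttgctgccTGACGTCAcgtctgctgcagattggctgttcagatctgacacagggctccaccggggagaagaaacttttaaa
The *Tgfb1* window had 75.2% G and C, against a median of 52.4% over all promoters, and 5 GC boxes lying 164, 123, 67, 36 and 16 bases before the start, with no TATA box. The *Tgfb2* window had 53.6% G and C, no GC box, and a TATA box 31 bases before the start. The printed *Ltbp1* window had 56.8% G and C and a cyclic AMP response element 73 bases before the start. Another *Ltbp1* RefSeq start, with its window at chr17:75178531-75178780 (+ strand), is not printed. That window had 50.8% G and C and no match to any of the motifs, and which start was used was not tested. These matches describe the letters, and no binding was measured.

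**Figure D1:**
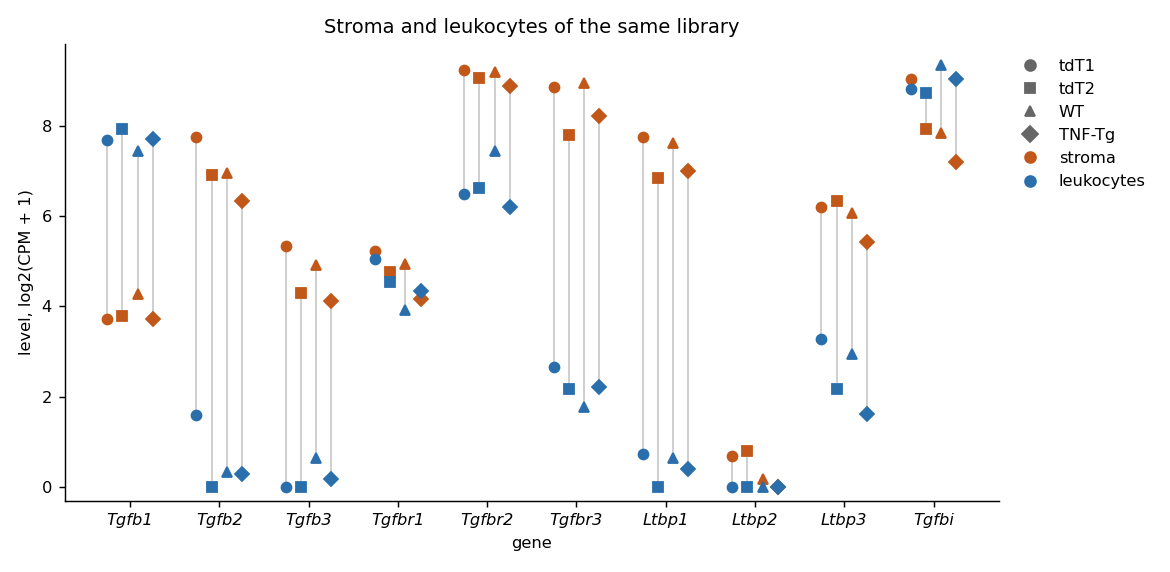
Level of each gene in the stroma and the leukocytes of the same library, as log2(CPM + 1) on the vertical axis, with a line joining the pair and a symbol for each of the 4 libraries. *Tgfb1* lies at 174 to 244 CPM in leukocytes against 12.2 to 18.2 CPM in stroma, and *Tgfb2* at 79.1 to 213 CPM in stroma against at most 2.01 CPM in leukocytes.

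Of the receptors, *Tgfbr2* was read in both compartments, at 604, 529, 579 and 473 CPM in stroma and 89.2, 97.0, 172 and 72.8 CPM in leukocytes, and was higher in stroma in 4 of 4 libraries (log2 difference 2.50, SE 0.22, adjusted p = 3.29e-05). *Tgfbr3* was almost wholly stromal, at 462, 223, 493 and 297 CPM against 2.44 to 5.37 CPM (log2 difference 6.89, SE 0.31, adjusted p = 1.21e-06). For *Tgfbr1* the groups overlapped, at 36.4, 26.2, 29.5 and 17.0 CPM in stroma and 32.2, 22.2, 14.1 and 19.2 CPM in leukocytes, and it was not called (log2 difference 0.44, SE 0.23, adjusted p = 0.139). The type I receptor thus differed from its partners in having no called difference between the compartments.

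*Ltbp1* stood at 213, 115, 195 and 127 CPM in stroma and at most 0.671 CPM in leukocytes (log2 difference 8.56, SE 0.23, adjusted p = 7.86e-07). *Ltbp3* stood at 72.2, 80.2, 65.9 and 41.7 CPM in stroma against 2.06 to 8.72 CPM (log2 difference 3.77, SE 0.27, adjusted p = 1.23e-05). *Ltbp2*, whose product binds fibrillin but not latent TGF-beta, had 0 to 7 UMIs in any of these sums and was too low to test. Both tested latency genes were therefore stromal, without overlap between the groups.

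*Tgfbi* crossed between libraries. Stroma held 521, 243, 228 and 145 CPM and leukocytes 447, 423, 648 and 523 CPM, so that tdTomato1 alone was higher in stroma. The call for leukocytes (log2 difference −0.91, SE 0.33, adjusted p = 0.0487) was lost without tdTomato2 (adjusted p = 0.115), without WT (0.0798) or without TNF-Tg (0.191), again in edgeR's test. In all, 6 of the 9 tested genes were higher in stroma, where 30.7% of the 12723 genes tested were, and 2 were higher in leukocytes, where 26.5% were.

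Of 45 other genes of the pathway, 41 were tested. Of these, 26 were higher in stroma and 7 in leukocytes, where 30.7% and 26.5% of all genes were, and 8 were not called. Among them the fibrillin gene *Fbn1*, to whose product latent complexes attach, was higher in stroma by 8.66 on the log2 scale, *Postn*, a matrix target, by 7.71, and *Vasn*, which encodes a ligand trap, by 7.67. Toward leukocytes, *Nrros* differed by −7.78, *Thbs1*, an activator of latent ligand, by −3.72, and *Furin*, the protease that cleaves the propeptide, by −1.63. Of the 12 tested genes of latency and activation, 8 were stromal and 3 leukocytic, and of the 11 that set receptor level or act as co-receptors, 8 and 1. Of 9 SMAD genes, 4 were stromal and 2 leukocytic, and of 13 common targets, 8 and 1. The counts of these short lists are to be read against the same shares of all genes.

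By origin, leukocytes supplied 86.1% of the *Tgfb1* UMIs of the WT library (85.2% to 86.9%) and 92.5% of those of TNF-Tg (91.8% to 93.3%), where they supplied 48.5% and 58.4% of all UMIs. Stroma supplied 8.50% and 3.36% of *Tgfb1*, and 95.5% and 94.4% of *Tgfb2*. Leukocytes supplied 70.4% and 82.3% of *Tgfbi*, and their share of *Tgfbr1* was 32.1% (29.7% to 34.6%) in WT and 62.1% (58.4% to 65.8%) in TNF-Tg. These shares follow the makeup of the sort as well as the level per cell.

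Within the leukocytes of WT, *Tgfb1* was highest in inflammatory monocyte-like cells (237 CPM), followed by MHC class II macrophage-like (202), Ear2 phagocyte-like (183) and Lyve1 macrophage-like cells (176). Lower *Tgfb1* was read in Cd209a dendritic cell-like (147 CPM), mast cell-like (131), cDC1-like (125) and T cell-like cells (121), and in neutrophil-like cells it was 61.4 CPM, above the 18.8 and 16.8 CPM of VSMC-marker and LMC-marker stroma. The counting intervals of neighbours in this order overlapped from inflammatory monocyte-like down to Lyve1 macrophage-like cells. They overlapped again from Cd209a dendritic cell-like down to T cell-like cells. In TNF-Tg, *Tgfb1* was read at 321 CPM in mast cell-like cells, from 24 UMIs, and at 311 CPM in patrolling monocyte-like cells, a class with too few cells in WT. Next came inflammatory monocyte-like (249 CPM), Lyve1 macrophage-like (208) and MHC class II macrophage-like cells (188), with neutrophil-like cells at 67.4 CPM and stroma again last (12.4 and 11.0 CPM). Every leukocyte class shown, in both libraries, was thus above both stromal classes.

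*Tgfbr2* had another order. In WT it ran from LMC-marker stroma (643 CPM) over VSMC-marker stroma (347) and Lyve1 macrophage-like cells (293) to MHC class II macrophage-like cells (190), with 34.5 CPM in inflammatory monocyte-like and 17.8 CPM in cDC1-like cells. The macrophage-like classes therefore held more of the receptor transcript than the monocyte-like class, while their *Tgfb1* was no higher. *Tgfbi* was highest in WT in Lyve1 macrophage-like cells (981 CPM) and was 8.38 CPM in T cell-like cells. *Tgfbr1* was highest in WT in mast cell-like cells, at 184 CPM from 31 UMIs.

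**Figure D2:**
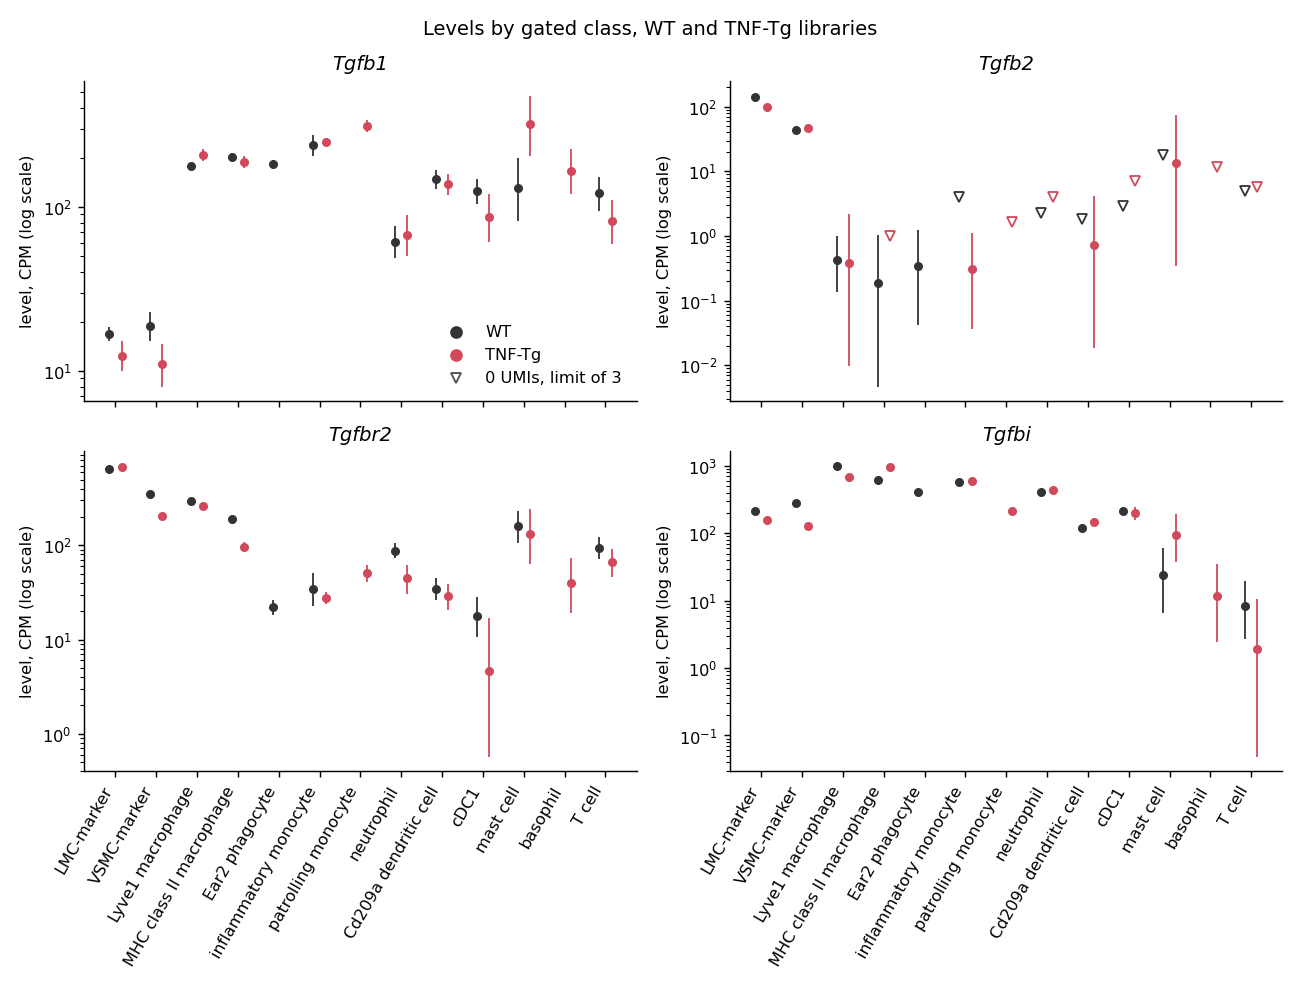
*Tgfb1*, *Tgfb2*, *Tgfbr2* and *Tgfbi* by gated class in the WT and TNF-Tg libraries, in CPM on a log axis, with exact Poisson 95% intervals that cover counting error only and open triangles at the limit of 3 UMIs where none was read. *Tgfb1* lies at 61.4 to 237 CPM over the WT leukocyte classes and at 16.8 to 18.8 CPM in stroma, and *Tgfbi* was 981 CPM in WT Lyve1 macrophage-like cells and 947 CPM in TNF-Tg MHC class II macrophage-like cells.

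Over 40 sums of class by library, the 3 genes whose log2(CPM + 1) tracked *Tgfb1* most closely of 5941 were *Nrros* (r = 0.96), *Il10ra* (0.94) and *Rps6ka1* (0.94). For *Tgfb2* they were *Slc4a4* (0.98), *Msx1* (0.98) and *Adamts2* (0.97), and for *Tgfbr3* they were *Fstl1* (0.96), *Serping1* (0.95) and *Col5a2* (0.95). *Tgfb1* ran against *Tgfb2* at r = −0.88 and against *Ltbp1* at −0.90, while *Tgfb2* and *Ltbp1* ran together at 0.94. The sums share libraries, depth and the gating that parts stroma from leukocytes, and *Fstl1* is itself a gating marker, so these values are a description without a test.

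The second comparison set LMC-marker against VSMC-marker stroma of the same library. *Tgfb2* stood at 256, 205, 144 and 99.8 CPM in LMC-marker stroma of tdTomato1, tdTomato2, WT and TNF-Tg, and at 86.7, 57.3, 44.4 and 47.0 CPM in VSMC-marker stroma, without overlap. The difference was 1.41 on the log2 scale (SE 0.16, edgeR adjusted p = 2.59e-05). *Tgfbr2* stood at 710, 841, 643 and 677 against 296, 308, 347 and 203 CPM (log2 difference 1.23, SE 0.15, adjusted p = 4.75e-05), also without overlap. Ligand and type II receptor were thus both higher on the LMC-marker side in 4 of 4 libraries.

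*Ltbp1* stood at 239, 151, 228 and 179 CPM against 140, 93.6, 84.3 and 49.4 CPM (log2 difference 1.14, SE 0.17, adjusted p = 0.000291), without overlap. *Tgfbr1* stood at 37.6, 35.0, 32.3 and 22.7 CPM against 28.9, 21.0, 18.4 and 9.54 CPM (log2 difference 0.69, SE 0.16, adjusted p = 0.00634). Its groups overlapped across libraries, although LMC-marker stroma was the higher class in each pair, and its call was lost without WT (0.70, adjusted p = 0.0541). In all, 4 of the 9 tested genes were higher in LMC-marker stroma, where 9.08% of 10743 genes were, and 0 in VSMC-marker stroma, where 12.6% were. Without the library as a block, 2 of these calls remained, *Tgfb2* and *Tgfbr2*, while *Ltbp1* (1.06, adjusted p = 0.0692) and *Tgfbr1* (0.66, adjusted p = 0.327) were lost.

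The other ligands and receptors gave no call, with log2 differences of −0.12 for *Tgfb1* (adjusted p = 0.658), −0.01 for *Tgfb3* (0.987) and 0.34 for *Tgfbr3* (0.0913). *Ltbp3* and *Tgfbi* leaned to VSMC-marker stroma, at −0.29 (edgeR adjusted p = 0.152) and −0.37 (0.140). Leukocyte markers summed to 3.69 to 34.0 CPM in LMC-marker stroma and 51.5 to 233 CPM in VSMC-marker stroma, and their part in the *Tgfb1* and *Tgfbi* values was not tested. Of 38 other pathway genes tested, 10 were higher in LMC-marker and 8 in VSMC-marker stroma (9.08% and 12.6% of all genes), and 20 were not called.

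**Figure D3:**
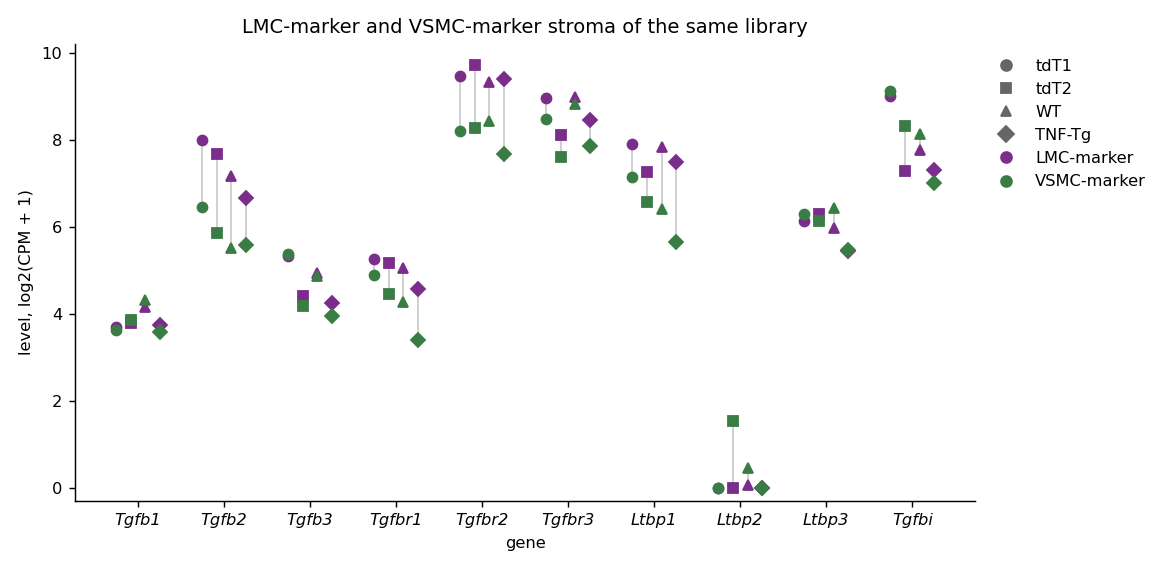
Level of each gene in LMC-marker and VSMC-marker stroma of the same library, as log2(CPM + 1), with a line joining the pair and a symbol for each library. *Tgfb2* lies at 99.8 to 256 CPM in LMC-marker and 44.4 to 86.7 CPM in VSMC-marker stroma, *Tgfbr2* at 643 to 841 and 203 to 347 CPM.

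The third comparison set TNF-Tg beside WT within a class. With 1 library per genotype there is no replicate check and no p-value, ratios carry exact 95% intervals that cover counting error only, and a gene is counted as higher or lower from 1.5-fold and 20 UMIs in both libraries together. The median gene itself was shifted by −0.04 on the log2 scale in LMC-marker stroma, −0.21 in VSMC-marker stroma and −0.14 in leukocytes.

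In LMC-marker stroma, 9 of the 10 genes passed the UMI minimum, 8 of them lay below 0, and their median log2 ratio was −0.51. Against 12.3% of 12042 genes higher and 15.0% lower, 0 of them were counted as higher and 1 as lower. That was *Tgfb3*, with 29.5 CPM in the WT and 17.9 CPM in the TNF-Tg library (log2 ratio −0.72, 1.65-fold lower). *Tgfb2* (144 and 99.8 CPM, −0.53), *Tgfbr3* (507 and 351 CPM, −0.53), *Ltbp3* (61.3 and 42.4 CPM, −0.53) and *Tgfbr1* (32.3 and 22.7 CPM, −0.51) lay just inside the 1.5-fold limit, between 1.42-fold and 1.45-fold. The exception was *Tgfbr2*, at 643 and 677 CPM (0.08, 0.03 to 0.12). *Tgfb1* was 16.8 and 12.4 CPM (−0.44), but the sign turned, to 0.30, where cells took their class from Seurat clusters.

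In VSMC-marker stroma the same 9 genes passed, with a median log2 ratio of −0.95, and 8 were counted as lower and 0 as higher, where 29.6% and 12.2% of 10727 genes were. *Tgfbi* went from 279 CPM in WT to 129 CPM in TNF-Tg (−1.12, −1.26 to −0.97), and *Tgfbr3* from 454 to 230 CPM (−0.98, −1.09 to −0.87). *Ltbp3* (−0.97), *Tgfb3* (−0.96) and *Tgfbr1* (−0.95) were of like size. *Tgfb1* (−0.78), *Tgfbr2* (−0.77, 347 and 203 CPM) and *Ltbp1* (−0.77) lay past 1.5-fold only before the shift of the median gene was removed, which left 5 counted as lower. The share of all genes counted as lower was not computed after that removal. *Tgfb1* came to −0.01 in cells thinned to 3000 UMIs. *Tgfb2* did not follow the rest, at 44.4 and 47.0 CPM (0.08, −0.20 to 0.36). Leukocyte markers summed to 146 CPM in VSMC-marker stroma of WT and 233 CPM in that of TNF-Tg, and their part in these ratios was not tested.

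**Figure D4:**
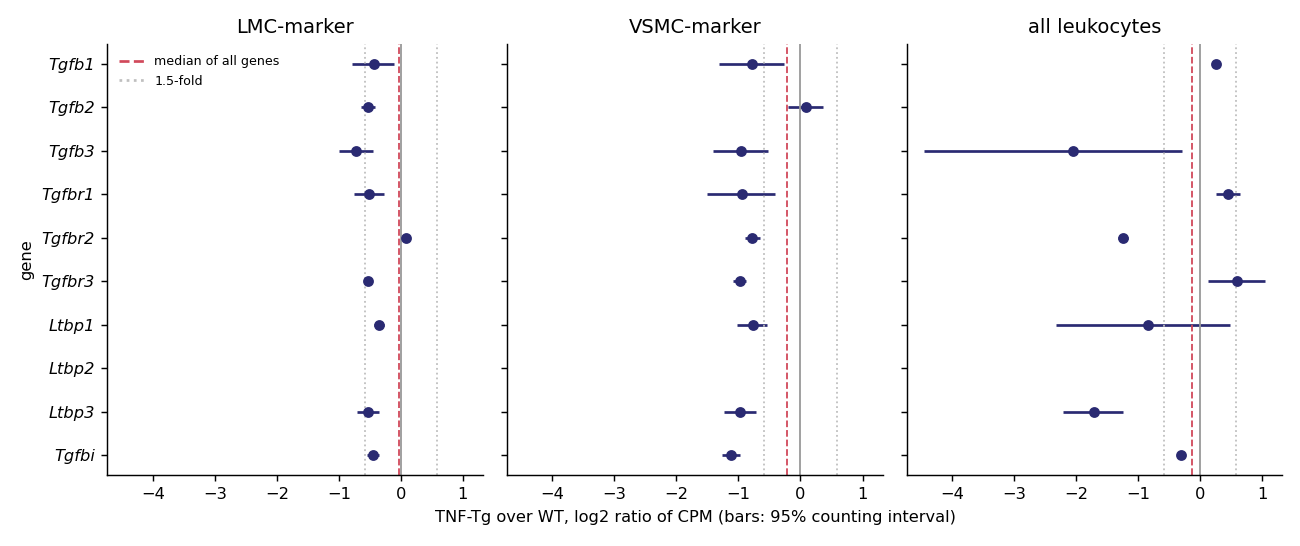
TNF-Tg over WT as a log2 ratio of CPM for each gene in LMC-marker stroma, VSMC-marker stroma and all leukocytes, with exact 95% counting intervals, a dashed line at the median of all genes and dotted lines at 1.5-fold. In VSMC-marker stroma 8 genes lie past 1.5-fold below 0 while *Tgfb2* is at 0.08, and *Tgfbr2* is at 0.08, −0.77 and −1.24 in the 3 panels.

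In all leukocytes, 8 genes passed, 1 was counted as higher and 4 as lower, where 14.8% and 26.0% of 12962 genes were. *Tgfb1* went from 174 CPM to 208 CPM (0.26, 0.20 to 0.32). *Tgfbr2* was 172 and 72.8 CPM (−1.24, −1.32 to −1.16), and *Ltbp3* 6.77 and 2.06 CPM (−1.72). *Tgfb3* (19 and 3 UMIs), *Ltbp1* (19 and 7 UMIs, −2.33 to 0.48) and *Tgfbr3* (81 and 80 UMIs, 0.59, 0.12 to 1.05) rest on few transcripts. The stromal marker list summed to 91.8 CPM in leukocytes of WT and 49.3 CPM in those of TNF-Tg, in the direction of *Tgfb3*, *Ltbp1* and *Ltbp3*, and its part there was not tested.

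The leukocyte makeup differed between the libraries, so the ratios were also taken class by class. The 9 classes present in both included the leukocytes that were given no named class, whose own makeup may differ. Over these 9, *Tgfbr2* went from 204 CPM to 76.0 CPM, or to 147 CPM with each class given its WT weight. Its value was lower in TNF-Tg in each of the 9, at 171 and 51.2 CPM (−1.74) in the leukocytes without a named class. The counting interval of the *Tgfbr2* ratio included 0 in 5 of them (inflammatory monocyte-like, Cd209a dendritic cell-like, cDC1-like, mast cell-like and T cell-like cells), and the sign turned in inflammatory monocyte-like cells after thinning (0.77) and in Cd209a dendritic cell-like cells under a stricter gate (0.35). *Tgfb1* was 172 and 199 CPM, 185 CPM at WT weights, and higher in 5 of 9. *Tgfbr1*, 14.1 and 19.2 CPM in all leukocytes (0.45), was 16.5 and 14.6 CPM over these classes, 9.77 CPM at WT weights, and higher in 1 of 9. *Tgfbr1* was 67.2 CPM in the TNF-Tg patrolling monocyte-like cells, a class of 4 cells in WT and so outside the 9. Ear2 phagocyte-like cells, 292 in WT and 17 in TNF-Tg, were outside them too. In WT these cells stood at 2.08 CPM for *Tgfbr1* and 22.0 CPM for *Tgfbr2*. The pooled *Tgfbr1* ratio thus did not hold within classes, and it also turned, to −0.10, as a mean over cells. *Tgfbr3*, at 0.59 in all leukocytes, was 2.56 and 1.96 CPM over these classes, 1.67 CPM at WT weights, and higher in 4 of 9. Of its 80 TNF-Tg leukocyte UMIs, 40 lay in the patrolling monocyte-like cells.

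In Lyve1 macrophage-like cells 6 genes passed, with 0 counted as higher and 2 as lower, where 15.3% and 14.7% of 10727 genes were. These were *Tgfbr1* (188 and 14 UMIs, −1.56) and *Tgfbr3* (28 and 3 UMIs, −1.03, −3.39 to 0.66). *Tgfb1* was 176 and 208 CPM (0.24), *Tgfbr2* 293 and 262 CPM (−0.16) and *Tgfbi* 981 and 679 CPM (−0.53). In MHC class II macrophage-like cells 5 passed, with 1 higher and 2 lower, where 17.0% and 27.5% of 9978 genes were. There *Tgfbi* went from 629 CPM to 947 CPM (0.59, 0.52 to 0.66), *Tgfbr2* 190 and 95.5 CPM (−0.99), *Ltbp3* 22 and 7 UMIs (−0.79, −2.26 to 0.49) and *Tgfb1* 202 and 188 CPM (−0.11, or 0.026 relative to the median gene). *Tgfbi* lay just past the 1.5-fold limit and fell short of it, at 0.57, without cells of high mitochondrial share or few genes. The macrophage-like classes thus had *Tgfbi* ratios of opposite sign, and *Tgfbr2* was past 1.5-fold in one of them. Stromal markers summed to 106 and 70.1 CPM in WT and TNF-Tg Lyve1 macrophage-like cells and to 117 and 39.6 CPM in MHC class II macrophage-like cells.

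The remaining pathway genes are given for both stromal classes. In LMC-marker stroma 41 of the 45 passed, 3 higher and 12 lower (12.3% and 15.0% of all genes), with a median log2 ratio of −0.28 against −0.04 over all genes. In VSMC-marker stroma 40 passed, 2 higher and 17 lower (12.2% and 29.6% of all genes), with a median of −0.49 against −0.21. Of 13 common targets that passed in VSMC-marker stroma, 1 was higher and 9 were lower, to be read against the same shares. *Cdkn1a*, a cell cycle inhibitor that TGF-beta among other signals induces, was 191 and 40.7 CPM in LMC-marker (−2.23) and 183 and 33.6 CPM in VSMC-marker stroma (−2.45). *Fn1*, encoding fibronectin, was 6694 and 3193 CPM in LMC-marker (−1.07) and 2297 and 854 CPM in VSMC-marker stroma (−1.43).

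In LMC-marker stroma the matricellular target *Ccn2* was 20.7 and 2.75 CPM (−2.91), the integrin gene *Itgb3* was lower (−1.07), and *Lrrc32*, which tethers latent ligand at the cell surface, was higher (1.55). In VSMC-marker stroma *Ltbp4*, the remaining latent TGF-beta binding protein gene, was 783 and 283 CPM (−1.47) and *Skil*, a SMAD inhibitor, was lower (−1.72). *Thbs1*, read from 12 and 18 UMIs in LMC-marker stroma (2.26), came from 1 and 24 UMIs in VSMC-marker stroma (4.96, 2.34 to 10.3), and *Acta2*, a contractile gene, there from 2 and 21 UMIs (3.77, 1.73 to 6.90). In all leukocytes 40 passed, 10 higher and 13 lower (14.8% and 26.0% of all genes), with a median of −0.09 against −0.14 over all genes.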

How the data were processed

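The deposited matrices hold UMI counts per gene and cell. Per the submitters' processing notes the authors used Cell Ranger 3.1.0 and Seurat 4.0.3 with the mm10 build, and the matrix headers name Cell Ranger 6.0.1 for all libraries but tdTomato1. The genes and gene lists were chosen with earlier results of these data known. Every cell was scored by the share of each marker list detected, with a scoring rule set after the data were seen. A cell was named where its list reached a share of 0.5 and led the next, and classes of under 20 cells per library were left out. Predicted doublets (0 to 137 cells per library, Scrublet in scanpy 1.11.5) were kept in the values reported.

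UMIs were summed per class and library. Both within-library comparisons were fitted with edgeR 4.0.16 (TMM, filterByExpr, quasi-likelihood test, library as a block, Benjamini-Hochberg over all genes tested, threshold 0.05), in R 4.3.3, after each step had been tested on simulated data. The block pairs the sums because both come from the same pooled mice. Adjusted p-values weigh the class difference against its own spread over these 4 libraries, each from 3 pooled mice. Differences between libraries that both classes share are taken up by the block, and the spread between mice was not measured. The study's test over cells was not used because cells are not replicates. Genotype ratios were computed from CPM with exact conditional binomial intervals. UMIs correct for amplification copies, and all intervals cover counting error only. Named were all 10 genes, those of the other pathway genes with the 3 largest called differences each way between stroma and leukocytes, and up to 6 per stromal class past 1.5-fold between genotypes, by size, including *Nrros*. The alternatives included DESeq2 1.42.0, other filters and gates, and classes from 23 clusters in Seurat 5.3.0. Promoters were read from RefSeq (GRCm38.p6).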

Additional observations from a re-analysis of the deposited data

Results flagged for a closer look

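Ratios of TNF-Tg over WT with counting intervals on opposite sides of 0 in separate classes were marked for 5 genes. With 1 library per genotype the differences themselves were not tested, and all values are on the log2 scale. *Tgfb1* was −0.58 in stroma and 0.26 in leukocytes, and within leukocytes 0.24 in Lyve1 macrophage-like and −0.57 in T cell-like cells. The T cell-like value rests on 72 and 43 UMIs, with a counting interval of −1.15 to −0.0018, and was not put through the alternatives. *Tgfbr1* was −0.80 in stroma and 0.45 in leukocytes, but the leukocyte sign turned, to −0.10, as a mean over cells. Over the 9 leukocyte classes present in both libraries *Tgfbr1* was lower in TNF-Tg (16.5 and 14.6 CPM). *Tgfbr2* was 0.075 in LMC-marker and −0.77 in VSMC-marker stroma. *Tgfbr3* was −0.73 in stroma and 0.59 in leukocytes, but over the 9 leukocyte classes present in both libraries it was lower in TNF-Tg (2.56 and 1.96 CPM). *Tgfbi* was −0.53 in Lyve1 macrophage-like, 0.59 in MHC class II macrophage-like and 0.30 in Cd209a dendritic cell-like cells, the last with a counting interval of 0.0046 to 0.59 and a turned sign, −0.33, after thinning.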

How the results depend on the processing

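In the stroma and leukocyte comparison the count of 6 genes higher in stroma stayed within 1.5 times in every alternative, and the 2 higher in leukocytes became 1, without *Tgfbi*, in edgeR fits with no replicate block (adjusted p = 0.118), with a mitochondrial and gene-number filter (0.0546) and with a stricter gate (0.127). Leaving out each library in turn gave 1 to 2. Between the stromal classes, the fit without the block called 275 and 309 genes and 2 members. Genes higher in VSMC-marker stroma ranged from 677 to 1407 as each library was left out (677 without WT, 796 without TNF-Tg). The stricter gate called *Ltbp3* for VSMC-marker stroma, so that count was 1, and the DESeq2 Wald test called *Tgfbr3* (0.34, adjusted p = 0.0353). *Tgfb3*, uncalled and near 0 throughout, changed sign with DESeq2 size factors (0.0028), the DESeq2 Wald test (0.0098), no filter (0.044), no block (0.019), the tdTomato libraries left out (0.026), the mitochondrial filter (0.000125), the stricter gate (0.037) and tdTomato1, WT or TNF-Tg left out (range over all single libraries −0.018 to 0.042, the lowest, without tdTomato2, keeping the sign). *Tgfb1*, uncalled, changed sign with the stricter gate (0.022) and with Seurat clusters (0.33). For TNF-Tg over WT a fold of 2 left 0 lower in LMC-marker stroma, 1 lower in VSMC-marker stroma and 0 higher in leukocytes. Centring on the median gene gave 5 lower in VSMC-marker stroma and 2 higher in leukocytes. No share of all genes was computed for these centred counts. The count higher in leukocytes was also 0 by mean over cells, with the stricter gate and with Seurat clusters, and the count lower there was 2 with a minimum of 100 UMIs and after thinning. In MHC class II macrophage-like cells the count higher became 0 with a fold of 2 and with the mitochondrial filter, and the count lower ranged from 0 (fold of 2) to 3 (no filter on low values). In Lyve1 macrophage-like cells the count lower ranged from 1 to 3. Besides the counts in LMC-marker stroma, VSMC-marker stroma and all leukocytes, 594 values for this comparison stayed within their limit and 81 moved beyond it. These values were ratios of single genes, with the counting interval as limit, and counts of genes past the fold in the other classes. For the counts the limit was 1.5 times. Depth limits *Tgfb2*, *Tgfb3*, *Ltbp1* and *Tgfbr3* in leukocytes, where ratios rest on few UMIs, and *Ltbp2* everywhere. No sum of one library can separate genotype from preparation.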

Other observations

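Endothelial cells were numerous enough for a sum in tdTomato1 alone, with 33 cells, and entered no comparison. There *Tgfb1* stood at 117 CPM, *Tgfbr2* at 189 CPM, *Tgfbr3* at 174 CPM and *Tgfbi* at 21.5 CPM. *Tgfb2* was read from 2 UMIs, at 4.77 CPM (counting interval 0.578 to 17.2), under the limit of 3 UMIs.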
